A study of Mus musculus with 18 samples.

Results

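Whole lenses of 2-day-old mice that carry 1 mutant copy of *Cryaa* (*Cryaa*-R49C-het) were compared by RNA-seq with lenses of wild-type (WT) mice of the same age, to ask what a single mutant allele changes in the transcriptome. The comparison takes 3 het and 3 WT libraries out of the 18 of the series, each made from its own pool of lenses, and covers the 13938 genes that passed a filter on low counts, out of 40800 in the count table. All mice were labelled C57BL/6J. The mutant allele is a knock-in made with stem cell techniques, so it is expressed from the endogenous *Cryaa* locus, and age-matched C57BL/6J mice served as controls. The remaining libraries, 3 of homozygous *Cryaa*-R49C lenses (homo, 2-day-old) and 9 from 14-day-old mice of the *Cryab*-R120G knock-in line, are used here for the shared estimate of spread and for direct tests on single genes.

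*Cryaa* encodes αA-crystallin, a small heat shock protein that is among the most abundant proteins of the lens and that keeps other lens proteins soluble. The lens is built of an anterior epithelium and of fiber cells, which elongate, fill with crystallins and lose their organelles. The arginine-to-cysteine change at residue 49 is linked with dominant hereditary cataract in humans, and for this reason the heterozygous animals are the genetic counterpart of the human condition.

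The reference sequence at the mutated residue is shown because it is the only designed difference between the groups. Codon 49 lies in the coding sequence of *Cryaa* on the plus strand (GRCm38, chr17:31678115-31678177 for the stretch printed), the residue encoded there in the GENCODE vM21 transcript is arginine (R), and the capitals mark that codon.
*Cryaa* codon 49, reference allele: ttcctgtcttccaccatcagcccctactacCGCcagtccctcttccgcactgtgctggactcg
The counts per gene do not separate the alleles, so the share of mutant mRNA in the het lenses was not analysed here.

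Library totals were 17791081, 24639638 and 14272174 counts in WT and 20412508, 22018712 and 19705471 counts in het. The libraries held lens RNA by their markers: crystallin genes took 46.3% to 61.4% of the counts, and *Mip*, the fiber water channel, lay between 190 and 314 CPM (counts scaled to a common library total with TMM factors), although *Lim2*, another fiber membrane gene, had no count in any of the 6 libraries. The groups differed in composition. *Gm42418*, a non-coding gene that overlaps ribosomal RNA sequence, took 27.8%, 30.1% and 20% of the WT counts and 18%, 12.6% and 11.9% of the het counts, and the groups did not overlap. The crystallin share was higher in all 3 het libraries, with 47.4%, 46.3% and 49% in WT against 52.8%, 61.4% and 57.1% in het. In each case the two-sided exact permutation test gave p = 0.1, the smallest value that 3 against 3 libraries allow. With *Gm42418* left out of the totals, the difference in crystallin share went from 9.53 to 2.17 percentage points (exact permutation p = 0.6).

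WT replicate 3 stood apart from the other WT libraries. On the first principal component of log2 CPM (39.6% of the variance) it lay at 0.46, beside het replicates 1 and 3 at 0.18 and 0.53, whereas WT replicates 1 and 2 lay at -0.44 each and het replicate 2 at -0.29. The summed level of 16 photoreceptor genes followed the same split, with 22.4, 18.4 and 80.8 CPM in WT and 56.3, 23.1 and 101 CPM in het. The source of this RNA was not tested. *Crx*, a photoreceptor transcription factor, had 4.43, 3.71 and 17.2 CPM in WT and 10, 5.19 and 20.4 CPM in het. WT replicate 3 also held most of the muscle RNA, with *Acta1* (skeletal muscle actin) at 10.4 CPM against 0.511 and 0.169 CPM in the other WT libraries. Gene length moved with the groups as well. Across the 13910 tested genes with a known exon length, the log2 fold change fell with length (Spearman's rank correlation -0.34 across genes, which are not independent), from a median of 0.15 in the shortest quintile (median 1568 bases) to -0.24 in the longest (median 10047 bases). The longest minus the shortest quintile, as a median deviation in log2 CPM from the mean of the 6 libraries, was 0.09, 0.18 and 0.26 in WT and 0.03, -0.34 and -0.23 in het.

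**Figure D1:**
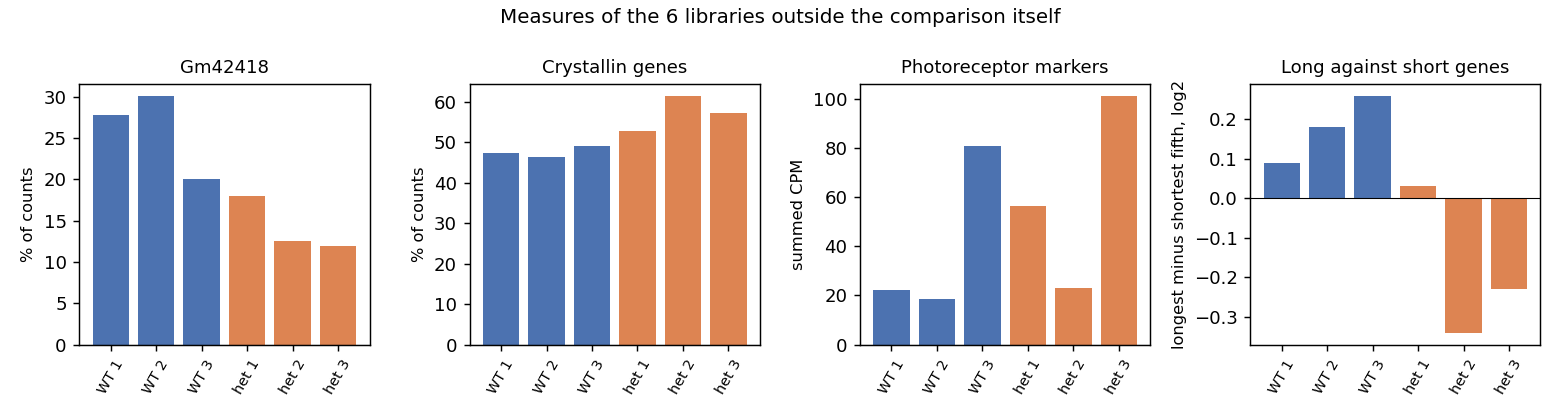
Percent of counts on *Gm42418*, percent of counts on crystallin genes, summed CPM of photoreceptor markers, and the log2 deviation of the longest minus the shortest quintile of genes, each as 1 bar per library (blue WT, orange het). The *Gm42418*, crystallin and length measures separate the groups, the length measure narrowly (0.09 in WT replicate 1, 0.03 in het replicate 1). Photoreceptor RNA was instead highest in WT replicate 3 and het replicates 1 and 3.

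A single gene passed the threshold between het and WT lenses, *Clic5*, which was lower in het. Differential expression was tested with edgeR's quasi-likelihood test in 1 model over all 18 libraries, with a Benjamini-Hochberg false discovery rate (FDR) of at most 0.05. *Clic5* was 1 of 13938 genes tested (0.00717%), and 709 genes (5.09%) had an unadjusted p under 0.05, of which 187 (1.34%) were higher and 522 (3.75%) were lower in het. In 3048 genes (21.9%) the groups did not overlap, with het wholly above WT in 1334 (9.57%) and wholly below in 1714 (12.3%), and such genes are called separated here. That split depends on the scaling, since on library size alone 11.8% of the genes were separated above and 2.45% below, and the fold changes shifted upwards, with a median of 0.21 in place of -0.01 (log2). The fold changes given here are therefore relative to the median gene. The median SE of a log2 fold change was 0.32, and for 7119 genes (51.1%) the 95% confidence interval lay within a 2-fold change in either direction. The homo libraries gave 1160 genes (8.32%) against het, 654 higher and 506 lower (816 and 203 on library size alone), and 1364 genes (9.79%) against WT in the same model. The count against het was 4102 without homo replicate 1 and between 460 and 610 without any other single homo or het library.

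**Figure D2:**
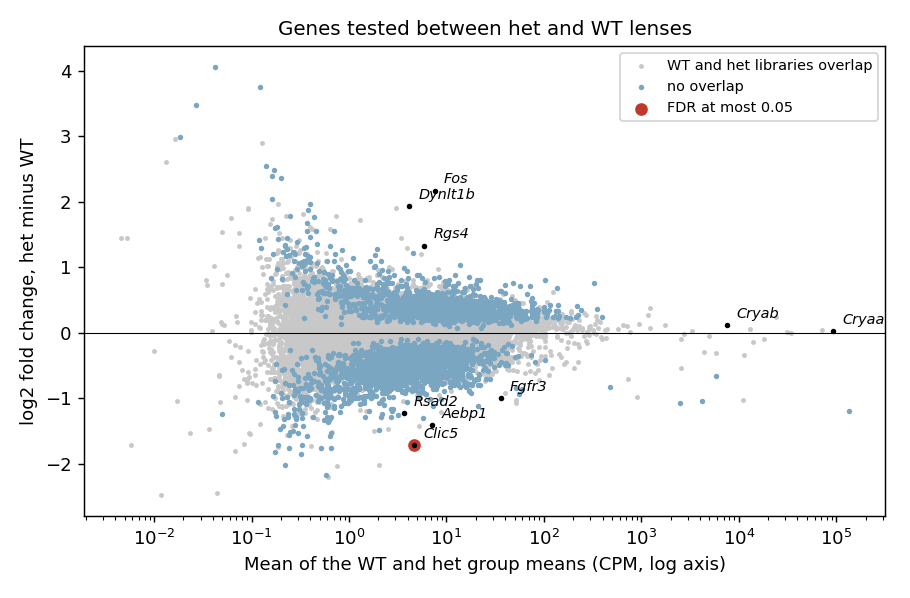
Each dot is a gene tested, with the mean of the WT and het levels in CPM on a log axis and the log2 fold change of het minus WT on the vertical axis. *Clic5* (red) was the only gene with an FDR at most 0.05, *Cryaa* and *Cryab* lay near 0 at the highest levels, and blue dots are the 3048 genes whose WT and het libraries do not overlap.

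*Clic5* encodes a chloride intracellular channel family protein that links the plasma membrane to the actin cytoskeleton, and lies on the plus strand of chromosome 17 (GRCm38, 44188584 to 44280172), 12.6 Mb from *Cryaa*. It had 6.22, 8.68 and 6.48 CPM in WT and 1.58, 3.51 and 1.5 CPM in het. Every het library lay below every WT library, and het replicate 2 was the highest of the het group. The log2 fold change was -1.71 (SE 0.27, 95% confidence interval -2.26 to -1.16, FDR 0.024). In the homo lenses only 4 to 7 reads per library were counted (0.154, 0.157 and 0.152 CPM). The further fall from het to homo was -3.77 on the log2 scale (SE 0.37, FDR 4.05e-07), so that the level was lower in het than in WT and lowest in homo. What sets this level was not tested. The call of *Clic5* depends on the libraries and on the fit, and it was made in 10 of 19 alternatives. Its FDR ranged from 0.000168 to 0.55 when a library was left out, and it was at most 0.05 only without het replicate 2. With the 6 WT and het libraries fitted alone the FDR was 0.216, with the 9 *Cryaa* libraries 0.852, and with the length trend removed 0.224. The log2 fold change stayed between -2.21 and -1.49 in all 19 alternatives. Of the 13 tested genes of its list of chloride intracellular channels and membrane-actin linkers, none other passed. *Clic1*, another family member, had 20.3, 16.3 and 21.9 CPM in WT and 23.3, 27.7 and 27.6 CPM in het (log2 fold change 0.42, SE 0.26, FDR 0.836).

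The other genes that the study lists for this comparison, *Aebp1*, *Rsad2*, *Dynlt1b* and *Rgs4*, were separated between the groups but did not pass in the quasi-likelihood test. Their calls depend on the test. With edgeR's likelihood-ratio test on robust dispersions, the kind of fit the methods describe, all 4 genes passed, with an FDR of 0.000672 for *Aebp1*, 0.001 for *Rsad2*, 0.00103 for *Dynlt1b* and 0.00954 for *Rgs4*. All 4 also passed when every gene with a count was kept, and *Dynlt1b* passed with DESeq2 (FDR 0.037). Over the 19 alternatives, *Rsad2* and *Dynlt1b* passed in 3 each, and *Aebp1* and *Rgs4* in 2 each. *Aebp1*, which encodes a collagen-binding matrix protein, had 11.5, 11.3 and 8.44 CPM in WT and 3.95, 4.87 and 2.97 CPM in het. The het level was 0.377 of WT (log2 fold change -1.41, SE 0.30, FDR 0.569). *Rsad2*, an interferon-induced antiviral enzyme (viperin), had 4.26, 6.21 and 4.94 CPM in WT and 1.77, 3.73 and 1.17 CPM in het. Its groups did not overlap, but its highest het library came close to its lowest WT library, and the log2 fold change was -1.22 (SE 0.31, FDR 0.836). *Rsad2* was the only one of 26 tested interferon-induced genes whose het libraries all lay below WT (background 12.3%). No member of that list lay wholly above WT, and its median of 0.17 was between -0.04 (without WT replicate 2) and 0.54 (without WT replicate 3) when 1 library was left out. *Cmpk2*, the neighbor of *Rsad2* that shares its induction by interferon, had 0.341, 0.101 and 0.806 CPM in WT against 0.817, 0.664 and 0.499 CPM in het.

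*Rgs4*, a regulator that shortens G-protein signaling, had 2.34, 3.68 and 4.10 CPM in WT and 6.02, 10.6 and 9 CPM in het. All het libraries exceeded all WT libraries. The log2 fold change reached 1.33 (SE 0.30, FDR 0.569). In the homo lenses *Rgs4* had 2.16, 2.70 and 2.36 CPM, no higher than WT. The homo minus het difference was -1.83 (SE 0.30, FDR 4.31e-04). The other 14 tested RGS genes had log2 fold changes between -0.65 and 0.29, and none passed.

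*Dynlt1b*, a dynein light chain gene on chromosome 17 at 25.2 Mb from *Cryaa*, had 2.51, 1.42 and 1.30 CPM in WT and 4.30, 7.52 and 8 CPM in het. The het level was 3.81 times WT and the groups did not overlap (log2 fold change 1.93, SE 0.41, FDR 0.569). Of the 14 tested genes of a dynein chain list, 5, *Dynlt1b* among them, lay above WT (35.7%, against 9.57% of all genes). Below WT lay 2 (14.3%, against 12.3%), among them the heavy chain gene *Dync1h1*. The list median of 0.20 was 0.07 without WT replicate 3. The level of *Dynlt1b* is uncertain, because it is part of a cluster of near-identical copies. In the GENCODE vM21 transcripts, 83.2% of the 50-base words of *Dynlt1b* also occur in another gene, and only reads that align uniquely were counted. The coding sequence of *Dynlt1b* differs from those of *Dynlt1a*, *Dynlt1c* and *Dynlt1f* at 1 base of 339, A21C counted from the start codon, shown in capitals in coding bases 6 to 36.
*Dynlt1b*: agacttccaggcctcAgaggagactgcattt
*Dynlt1f*: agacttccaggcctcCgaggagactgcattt
*Dynlt1f* had 1.02, 0.844 and 0.561 CPM in WT and 0.844, 1.23 and 0.748 CPM in het (log2 fold change 0.22, SE 0.39), and *Dynlt1c* had a log2 fold change of -0.91 (SE 0.73). Neither passed nor separated the groups in the direction of *Dynlt1b*. *Dynlt1a* was separated upwards at a very low level, with 0.256, 0.169 and 0.245 CPM in WT and 0.354, 0.348 and 0.673 CPM in het (log2 fold change 1.04, SE 0.57, FDR 0.836).

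Among the genes separated between the groups with the smallest p, the higher ones in het included *Aldh9a1*, an aldehyde dehydrogenase of carnitine synthesis, with 7.28, 8.65 and 7.08 CPM in WT and 11.9, 15 and 13.3 CPM in het. The log2 fold change was 0.80 (SE 0.19, FDR 0.836). *Rcan2*, which encodes an inhibitor of calcineurin, had 15.1, 17.4 and 12.4 CPM in WT and 25.0, 30.0 and 23.5 CPM in het (log2 fold change 0.81, SE 0.22, FDR 0.836). *P4htm*, a transmembrane prolyl hydroxylase, had 2.64, 2.80 and 1.89 CPM in WT and 4.69, 5.63 and 4.29 CPM in het. *Fam162a*, a hypoxia-responsive mitochondrial gene, had 10.7, 9.69 and 9.11 CPM in WT and 13.4, 17.7 and 19.1 CPM in het (log2 fold change 0.76, SE 0.21). *Capza1*, the alpha 1 subunit of the actin-capping protein, had 0.895, 1.05 and 1.4 CPM in WT and 2.86, 2.37 and 2.44 CPM in het, but 77.4% of its 50-base words occur in other genes. *Tmem179*, *C1qtnf2* and *Tab1* complete the list, with log2 fold changes of 1.22, 1.87 and 1.01, and *C1qtnf2* was counted at low level, 3 to 5 reads per WT library and 13 to 28 per het library. None of these genes passed, and separated groups were part of the rule that chose them. With the likelihood-ratio test, *Aldh9a1* and *Tmem179* passed (FDR 0.0325 each), and *Tmem179* also passed with every counted gene kept (FDR 0.0401).

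The lower genes of the same kind included *Gpd1*, cytosolic glycerol-3-phosphate dehydrogenase, with 3.41, 4.80 and 2.94 CPM in WT and 1.14, 2.43 and 1.45 CPM in het. *Pygo2*, a co-activator of Wnt signaling with a role in lens induction, had 9.03, 10.2 and 8.13 CPM in WT and 5.28, 4.65 and 3.64 CPM in het (log2 fold change -1.01, SE 0.25, FDR 0.836). *Tmem8*, on chromosome 17 at 5.6 Mb from *Cryaa*, had 2.81, 3.78 and 2.52 CPM in WT and 1.28, 1.61 and 0.997 CPM in het. None of these genes passed, with an FDR of 0.569 for *Tmem8* and 0.836 for *Gpd1*. With the likelihood-ratio test all 3 passed (FDR 0.0325 for *Gpd1* and 0.0212 for *Pygo2* and *Tmem8*). *Ppp6r1*, a regulatory subunit of protein phosphatase 6, and *Abca2*, a lipid transporter, had log2 fold changes of -1.30 (SE 0.33) and -1.11 (SE 0.30). *Spata24* and the MHC class II gene *H2-Eb1* followed with -1.16 and -1.52, and *H2-Eb1* was counted at low level, 11 to 36 reads per library. Of these, *Ppp6r1* and *H2-Eb1* passed with the likelihood-ratio test (FDR 0.0195 each), and *Ppp6r1* also passed with every counted gene kept (FDR 0.0148).

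**Figure D3:**
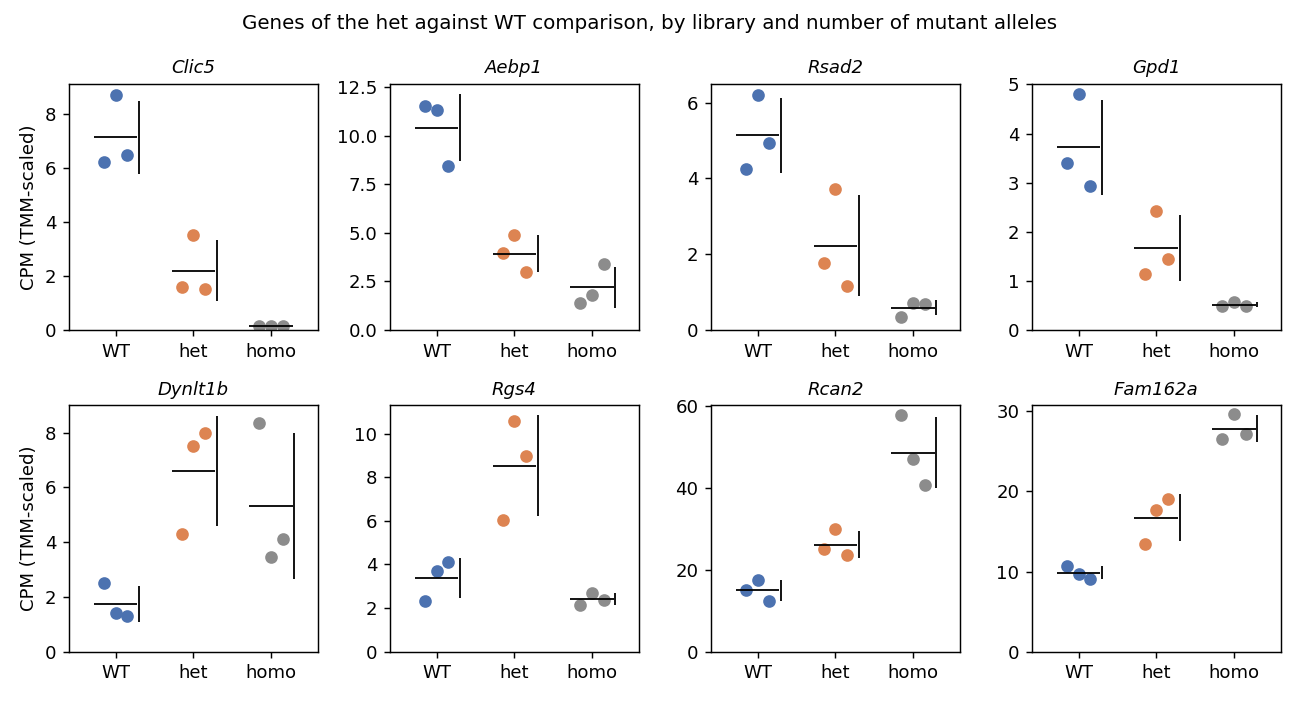
CPM of 8 genes in each library of WT, het and homo lenses, as dots, with the group mean as a horizontal line and the SD (n = 3) as a vertical bar. In *Clic5*, *Rsad2*, *Gpd1*, *Rcan2* and *Fam162a* the homo libraries lay further from WT than the het libraries, whereas *Rgs4* was high in het only.

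A set of 23 genes held the study's genes for this comparison and the separated rises and falls of smallest p. It also held the 8 genes of smallest p on chromosome 17. The homo levels did not enter the het minus WT difference, but all 18 libraries shared the spread behind the p that chose these genes. The homo against het test reuses that spread and the het libraries, so it is not independent of the choice. Between homo and het, 7 of the 23 genes passed in the direction away from WT, 2 passed in the direction back towards WT, and 14 did not pass, where 8.32% of all genes passed in that comparison. The 7 genes were *Clic5*, *Rsad2*, *Gpd1*, *H2-Eb1* and *Fam173a*, which fell further, and *Rcan2* and *Fam162a*, which rose further. *Rcan2* reached 57.9, 47.1 and 40.7 CPM in homo (0.89 above het on the log2 scale, FDR 0.0122) and *Fam162a* 26.6, 29.7 and 27.2 CPM (0.74 above het, FDR 0.0263). *Gpd1* reached 0.485, 0.566 and 0.494 CPM in homo, and *Rsad2* 0.352, 0.723 and 0.684 CPM (log2 differences from het of -1.69, FDR 0.00249, and -1.94, FDR 0.00129). The genes that went back were *Rgs4* and *Skiv2l*, a subunit of the RNA exosome's helper complex, with 6.13, 6.42 and 5.64 CPM in WT, 3.35, 3.79 and 3.09 CPM in het, and 4.01, 6.44 and 8.63 CPM in homo. Whether this choice of genes favored a pass in either direction was not tested.

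*Clic5* and *Dynlt1b* share their chromosome with *Cryaa*, and so did others of the smallest p. Chromosome 17 held 3 of the 10 genes with the smallest p and 5 of the first 20, against 655 (4.70%) of all genes tested. Beyond the genes named above, *Fam173a* had 19.6, 16.7 and 13.8 CPM in WT and 10.4, 10.6 and 10.6 CPM in het, and *Spaca6* had 7.33, 6.82 and 7.11 CPM in WT and 5.28, 3.04 and 2.87 CPM in het. These 8 genes with the smallest p on the chromosome were spread from 25.2 Mb before to 12.6 Mb after *Cryaa*. Over the whole chromosome, 5.04% of its genes had an unadjusted p under 0.05 against 5.09% of all genes, and 27.2% were separated between the groups against 21.9%. That separated share was the highest of the chromosomes, ahead of chromosome 14 at 25.9%. By position, 35.3% of 68 genes were separated in the first 20 Mb, 24.3% of 346 from 20 to 45 Mb, and 29% of 241 beyond. An unadjusted p under 0.05 was found in 8.82%, 5.2% and 3.73% of them. The cause of these shares was not tested.

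No crystallin gene differed detectably between het and WT lenses. *Cryaa* itself had 101000, 103000 and 70000 CPM in WT and 85200, 118000 and 77200 CPM in het, with a log2 fold change of 0.03 (SE 0.32, 95% confidence interval -0.64 to 0.70, FDR 0.984). *Cryab*, its partner in the α-crystallin complex, had 8030, 8700 and 5240 CPM in WT and 6320, 10600 and 6850 CPM in het (log2 fold change 0.12, SE 0.26). In each group replicate 3 or 1 was the lowest and replicate 2 the highest, and the ranges overlapped. Across the 16 α-, β- and γ-crystallins, log2 fold changes lay between -0.53 and 0.24, the groups overlapped in every gene, the smallest FDR was 0.836, and for 15 of the 16 the confidence interval excluded a 2-fold change in either direction. The exception was *Crygs*, expressed in late fiber cells, with 3170, 3820 and 2170 CPM in WT and 1570, 2920 and 1840 CPM in het (log2 fold change -0.53, interval -1.14 to 0.07). Counts of the clustered γ-crystallin genes may be incomplete, since 24.0% to 52.3% of their 50-base words are shared within the cluster. The *Cryaa* share of all counts was 12.4% to 14% in WT and 15.3% to 17% in het (exact permutation p = 0.1), beside the lower *Gm42418* share, and its direction in CPM depends on the settings, with log2 fold changes from -0.17 to 0.27.

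Of the 6 genes that mark the homozygous lens, none passed between het and WT. *Ddit3*, which encodes the stress transcription factor CHOP, had 3.32, 3.92 and 3.47 CPM in WT, 3.02, 3.00 and 3.19 CPM in het, and 166, 109 and 110 CPM in homo. The het values lay below WT (log2 fold change -0.22, interval -0.79 to 0.35, and 0.02 on library size alone), and the step from het to homo was 5.38 (SE 0.31, FDR 1.9e-10). Its targets *Chac1*, a glutathione-degrading enzyme, and *Trib3*, a pseudokinase, were at or under 0.409 CPM in every WT and het library and at or above 32.4 CPM in every homo library. At 0 to 15 reads per WT or het library their het minus WT values were wide, 0.65 for *Chac1* (interval -1.47 to 2.78, with het wholly above WT) and 0.67 for *Trib3* (interval -1.39 to 2.73). The other 3 genes were lost in homo. *Tcp11* had 27.9, 30.2 and 20.5 CPM in WT, 23.3, 36 and 21.3 CPM in het, and 1.89, 1.19 and 1.22 CPM in homo. The log2 fold change in het was 0.04 (interval -0.47 to 0.55). *Stx11*, a membrane fusion protein, and *Hspb1*, the small heat shock protein Hsp25, had het minus WT values of -0.24 (interval -0.72 to 0.25) and 0.45 (interval -0.37 to 1.27), and homo minus het values of -5.05 and -5.96. When 1 library was left out, the het minus WT value of *Stx11* lay between -0.47 (without het replicate 2) and -0.07 (without WT replicate 2), and that of *Hspb1* between 0.08 (without WT replicate 3) and 0.89 (without WT replicate 2). These 6 genes were chosen for their change in homo, so the size of that change is a description.

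**Figure D4:**
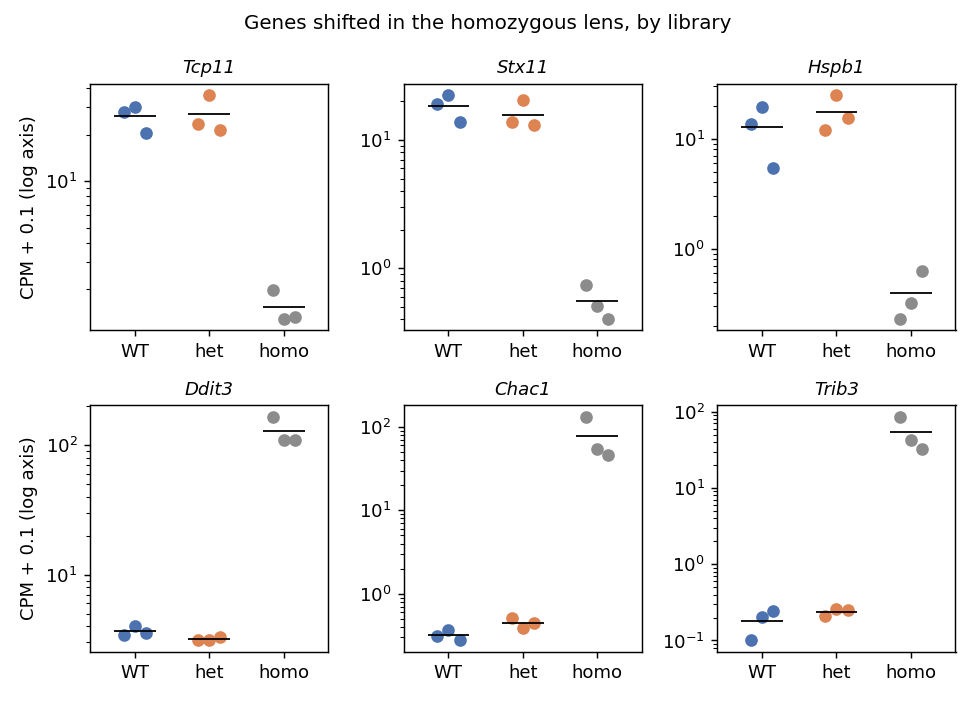
CPM plus 0.1 on a log axis for *Tcp11*, *Stx11*, *Hspb1*, *Ddit3*, *Chac1* and *Trib3* in each WT, het and homo library (dots), with group means as lines. The het libraries sat beside the WT libraries, and every homo library lay beyond the range of both groups.

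Across the gene lists, no member other than *Clic5* passed the threshold, and the lists differed in how many members were separated. Of the 30 tested ATF4 and CHOP targets, 3 lay wholly above (10%) and 3 wholly below WT (10%), near the 9.57% and 12.3% of all genes. The median log2 fold change was 0.18, but 0.03 without het replicate 2 and 0.09 without WT replicate 3. Of the 24 ER chaperones and unfolded protein response genes, 6 lay above (25%) and 3 below (12.5%). *Pdia4*, a protein disulfide isomerase, had 10.9, 14.4 and 14.6 CPM in WT and 18.6, 25.8 and 20.9 CPM in het, with a log2 fold change of 0.71 (SE 0.24, unadjusted p = 0.00704 in edgeR's test across all genes, FDR 0.836). *Sdf2l1* and *Creld2*, which act in ER protein folding, had log2 fold changes of 0.76 (SE 0.31) and 0.62 (SE 0.27). Cytosolic heat shock chaperones had 4 of 16 members above (25%, against 9.57% of all genes) and none below, and p53 targets had none above and 1 of 22 below (4.55%, against 12.3%).

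The 31 proteasome subunits had 14 members above WT (45.2%) and none below, against 9.57% of all genes above. All 31 log2 fold changes were above 0, with a median of 0.24 (0.15 without WT replicate 3) and a range of 0.04 to 0.59. *Psmd1*, a subunit of the regulatory particle, had 41.3, 54.9 and 63.0 CPM in WT and 73.5, 93.4 and 72.3 CPM in het (log2 fold change 0.59, SE 0.28, FDR 0.836). The aminoacyl-tRNA synthetases were similar, with 9 of 20 above WT (45%), none below and a median of 0.22. *Tars*, the threonyl-tRNA synthetase, had 7.67, 6.75 and 9.56 CPM in WT and 11.6, 13.0 and 12.6 CPM in het. Proteasome genes are short, with a median exon length of 2808 bases, and with a smooth length trend removed from each library their median was 0.14, whereas that of the synthetases, of 4840 bases, was 0.24.

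None of the lens capsule genes passed. All 16 tested lens capsule genes had log2 fold changes below 0 (range -1.03 to -0.21, median -0.35), and 2 of them (12.5%) lay wholly below WT, a share near the 12.3% of all genes. *Lama5*, a laminin chain, was one of them, with 9.24, 10.1 and 6.73 CPM in WT and 5.94, 6.1 and 3.07 CPM in het (log2 fold change -0.79, FDR 0.836). *Hspg2*, which encodes perlecan, had 88.6, 82.9 and 39.0 CPM in WT and 38.0, 44.1 and 21.0 CPM in het, so that WT replicate 3 fell within the het range (log2 fold change -1.03, SE 0.54). *Col4a1*, the main type IV collagen chain, had 134, 134 and 68.9 CPM in WT and 72.3, 82.7 and 49 CPM in het. These are long genes, with a list median of 8122 bases, and with the length trend removed the list median was -0.19, and -0.10 on library size alone. The part of gene length in these values was not tested further. Of 26 extracellular matrix and fibrosis genes, 5 lay below WT (background 12.3%) and 1 above, among them *Aebp1*, *Col1a1* and *Dcn* (decorin). *Col1a1*, a fibrillar collagen chain, had 2.04, 1.38 and 5.61 CPM in WT and 1.01, 1.14 and 1.10 CPM in het, and its highest value was in WT replicate 3, the library with the most muscle RNA. In *Aebp1* that library was instead the lowest of the WT group. Whether fewer cells of a type or less RNA per cell lies behind such values cannot be told apart in whole lenses.

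FGF signaling, which drives fiber differentiation, was covered by 15 receptors and feedback targets with a median of -0.43. *Fgfr3* had 53.3, 55.0 and 35.8 CPM in WT and 26.7, 30.0 and 16 CPM in het. Its groups did not overlap, and the log2 fold change was -0.99 (SE 0.30, FDR 0.836). *Fgfr2* had 10.7, 11.8 and 7.04 CPM in WT and 7.11, 7.68 and 3.74 CPM in het (log2 fold change -0.67, SE 0.28), and *Spred2*, an inhibitor of the pathway, had a value of -0.79 (SE 0.42). *Dusp6*, the ERK phosphatase, was on the other side of 0 with 2.6, 1.86 and 4.10 CPM in WT and 3.92, 4.96 and 6.16 CPM in het, where the groups overlapped through WT replicate 3. Removing the length trend moved the list median to -0.29, and on library size alone it was -0.18.

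None of the lens genes passed, and separated members are to be read against the 12.3% of all genes that lay below WT. Of 21 fiber membrane and cytoskeleton genes, 1 (4.76%) lay below WT, *Lgsn* (lengsin), with 11.1, 10.5 and 11.4 CPM in WT and 5.67, 10.2 and 3.49 CPM in het. *Bfsp1*, the beaded filament protein filensin, had 1030, 1150 and 538 CPM in WT and 602, 701 and 373 CPM in het, with overlapping groups (log2 fold change -0.70, SE 0.33). Of 14 lens epithelium genes, 2 (14.3%) lay below WT, and *Fzd6*, a Wnt receptor, had 5.96, 4.66 and 4.48 CPM in WT and 3.70, 3.64 and 2.87 CPM in het. *Pax6*, the regulator of eye development, overlapped between groups, with 50.6, 50.0 and 69.1 CPM in WT and 57.6, 57.0 and 57.9 CPM in het. Of 20 genes of a lens transcription factor list that also holds the RNA granule gene *Tdrd7*, 2 (*Six3* and *Zeb2*, 10%) lay below WT. None of that list lay above WT, and of 14 Notch pathway genes 1 (7.14%) lay below. Lists of fiber organelle loss and of glutathione and NRF2 targets had medians of 0.03 (-0.06 to 0.09 when 1 library was left out) and 0.11 (0.01 to 0.13).

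**Figure D5:**
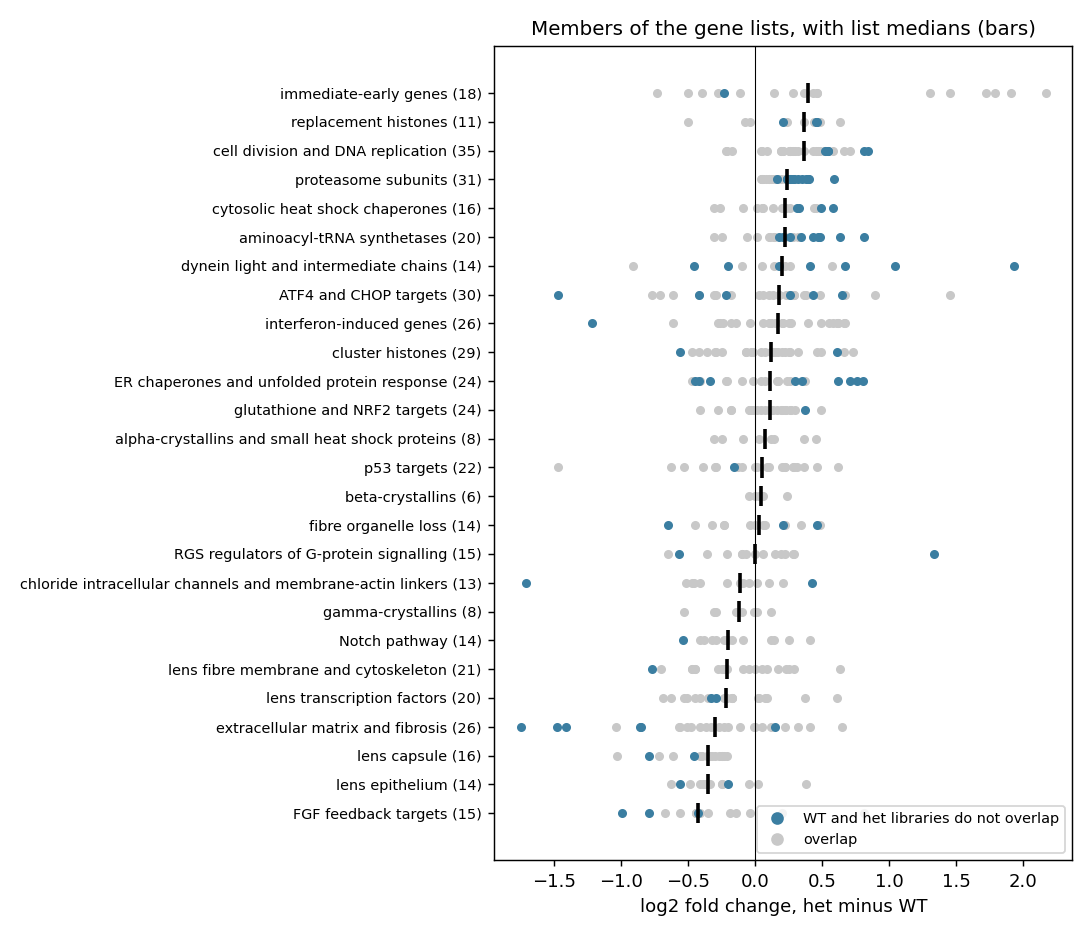
Log2 fold change (het minus WT) of every tested member of 26 gene lists, with the number tested in parentheses and the list median as a black bar. Blue dots are members whose WT and het libraries do not overlap, and proteasome subunits and aminoacyl-tRNA synthetases hold the most on the right of 0.

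Cell division genes had a median of 0.36, with 5 of 35 above WT (14.3%, against 9.57% of all genes) and 4 higher at an unadjusted p under 0.05 (against 1.34% of all genes). The median was 0.18 without het replicate 3 and 0.60 without WT replicate 3. *Mcm2*, a subunit of the replicative helicase, had 7.07, 6.18 and 9.14 CPM in WT and 10.7, 9.67 and 11.6 CPM in het (log2 fold change 0.52, SE 0.24, FDR 0.836). The summed level of the list was 210, 211 and 307 CPM in WT and 302, 227 and 378 CPM in het, so that its 3 highest libraries were the same 3 that held the most photoreceptor RNA. The part of that RNA in the result was not tested. Histone genes gave no call in het. Of 29 tested cluster histones 1 (3.45%, against 9.57% of all genes) lay above WT, *Hist1h1c* (a linker histone), with 32.1, 37.0 and 25.9 CPM in WT and 41.7, 52.4 and 51.2 CPM in het, and 1 (3.45%, against 12.3%) lay below, *Hist1h1b*. The replacement histones had 3 of 11 above WT (27.3%, against 9.57% of all genes), with *H2afy2* (a macroH2A) at 9.37, 9.56 and 8.30 CPM in WT and 10.8, 13.9 and 12.7 CPM in het (log2 fold change 0.46, SE 0.21). Histone mRNAs of the clusters mostly lack poly-A tails, and libraries were made from poly-A RNA.

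Immediate-early genes had a median of 0.39, which was 0.09 without het replicate 2 and 0.60 without het replicate 1, and a wide spread within groups. *Fos* had 0.298, 7.40 and 0.455 CPM in WT and 0.191, 27.7 and 9.42 CPM in het, with a log2 fold change of 2.17 and an SE of 2.07. *Cyr61* had 0.298, 2.77 and 0.701 CPM in WT and 0.436, 10.4 and 3.69 CPM in het. The high libraries were WT replicate 2 and het replicates 2 and 3, and het replicate 1 was as low as WT replicates 1 and 3. When every gene with at least 1 count was kept, the model gave 17 calls (0.064% of 26547 genes), which included *Fos*, *Cyr61*, *Ier2* and *Junb*, none of which separated the groups. Red blood cell genes had a median of 0.59 with *Hbb-bs* (adult β-globin) at 35.8, 23.0 and 31.7 CPM in WT and 28, 61.4 and 47.2 CPM in het, and macrophage markers a median of 0.03, which was -0.34 without WT replicate 2 and 0.41 without WT replicate 3. Of 16 vessel genes 4 lay below WT (25%, against 12.3% of all genes) and none above. *Flt1*, a VEGF receptor, had 6.56, 5.81 and 7.08 CPM in WT and 3.65, 3.45 and 4.14 CPM in het (log2 fold change -0.79, SE 0.38, FDR 0.836), and *Cdh5*, the endothelial cadherin, had 2.98, 2.97 and 3.15 CPM in WT and 1.5, 1.83 and 1.89 CPM in het.

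The het effect of the *Cryaa*-R49C line was also set against that of the *Cryab*-R120G line, with line and age changing together. No gene passed between the lines in edgeR's quasi-likelihood test (0%, 352 genes at an unadjusted p under 0.05), whereas DESeq2 called 6, edgeR's likelihood-ratio test 18, and the quasi-likelihood test with every counted gene kept 88. The line of the *Cryab*-R120G het samples rests on their titles, since their genotype field names the other line. For *Clic5* the difference was -1.61 on the log2 scale (SE 0.36, FDR 0.5).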

How the data were processed

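Poly-A RNA libraries from pooled lenses were read as single reads. The authors aligned them with STAR to GRCm38 and counted uniquely aligned, unambiguous reads per Ensembl gene with featureCounts (submitters' notes: STAR 2.0.4b, featureCounts 1.4.5). The strand setting is not given in the sources used here. The deposited table holds raw counts, with 41422 lines for 40800 genes, and 622 repeat lines were dropped. The authors' CPM, CPM per gene length and log2 CPM tables were not used.

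Groups and replicate numbers came from the sample titles. For the het and homo samples of the *Cryab*-R120G line the genotype field names the *Cryaa*-R49C line instead, which bears on the shared spread and the comparison of lines. Genes were kept by filterByExpr over 6 groups, scaled with TMM, and fitted with edgeR 4.0.16 (glmQLFit, robust) to 18 libraries. Levels are TMM-scaled CPM. SEs and 95% intervals come from the same fit. Alternatives were other scaling, filters, tests and library sets, leaving out each library, and a replicate block. Two-sided exact permutation tests (SciPy 1.17.1) compared library shares. The filter replaces that of the study (any count), which made the prior degrees of freedom infinite. Exon lengths and transcripts came from GENCODE vM21. Scripts were tested on simulated data.

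The genes and lists were chosen with earlier results of these data known. Genes were named from the following, of which the text gives a part: the genes the study lists for these lenses, every gene past the threshold, the 10 rises and 10 falls of smallest p among separated genes with a group mean of at least 20 counts, the 4 members of smallest p in each list, all crystallins, the 8 genes of smallest p on chromosome 17, and the 6 genes the study names for the homozygous lens. *Gm42418*, *Six3*, *Zeb2*, *Pax6*, *Mip*, *Lim2*, *Crx*, *Dynlt1c* and *Dynlt1f* were added after their values were seen.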

Additional observations from a re-analysis of the deposited data

How the results depend on the processing

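Between het and WT, 1 gene passed with RLE factors, library size alone, limma-voom, a 10-count filter, *Gm42418* left out, or the replicate number as a replicate block (*Clic5* in that fit -1.78, FDR 0.00149). It was 2 with DESeq2, 17 with every counted gene kept and 15 with the likelihood-ratio test, but 0 with only the 6 or the 9 *Cryaa* libraries, and 0 in both alternatives chosen after seeing the data (a 10-count filter on the 6 libraries, and removal of the length trend). Leaving out a library gave 0 to 2 calls. *Clic5* passed in 10 of 19 alternatives, with log2 fold changes from -2.21 to -1.49. Replicate numbers were not taken to pair the samples, since the same-number correlations of deviations were not all above 0.1 (-0.05, 0.33 and 0.48). The latter 2 were the highest of the 9 pairs, different numbers gave -0.49 to 0.30, and WT replicate 1 correlated best with het replicate 2. The homo against het count was 3052 with the likelihood-ratio test and 460 to 4102 without a library. The difference between lines gave 6 calls with DESeq2, 88 with every counted gene, 18 with the likelihood-ratio test and 0 to 2 without a library. The crystallin share differed by 2.17 percentage points with *Gm42418* left out of the total. The cause of these shifts was not tested. Fold changes near 0 turned. With the length trend removed, *Cryaa* was -0.09 and *Cryab* -0.02. On library size alone, *Ddit3* was 0.02 and *Stx11* 0.01, and with the likelihood-ratio test *Tcp11* was -0.03. Without 1 library, *Cryaa* ranged from -0.17 to 0.15, *Cryab* from -0.15 to 0.26, *Tcp11* from -0.23 to 0.18 and *Dynlt1f* from -0.02 to 0.41. With 3 libraries a group, only differences well above an SE of about 0.32 on the log2 scale could be called.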
